A study of Drosophila melanogaster with 12 samples.

Results

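The 10 genes described here are Drosophila heat shock and chaperone genes: stv, Hsp83, Hsp68, Hsp26, Hsp27, Hsp23, Hsc70-3, Hsc70-4, DnaJ-1 and Hsf. They were set by name, through the FlyBase identifier that stands for each symbol, with earlier results of these data known. The choice may therefore not be independent of their values. All 10 were found among the 17023 gene identifiers counted in every library, and all 10 were among the 9024 genes with enough counts to be tested. The libraries came from S2 cells, a line derived from Drosophila embryos that has features of plasmatocytes, the macrophage-like blood cells of the fly. Cells received double-stranded RNA (dsRNA) against porthos, a gene for a DEAD-box RNA helicase (CG9253, symbol pths), or dsRNA against GFP, which has no target in these cells. From each lysate, total RNA (the input) and RNA sedimenting with polysomes in a sucrose gradient were sequenced after poly(A) selection, so the groups were input porthos, input GFP, polysome porthos and polysome GFP, with 3 libraries each. All 4 groups received dsRNA and a short cycloheximide treatment, which holds ribosomes on mRNA. The labels do not say that the replicates came from separate cultures, so the p-values measure the spread between these libraries, which may be technical. In bulk RNA, fewer cells of a type and less RNA per cell cannot be told apart.

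Chaperones bind unfolded protein chains and help them fold or hold them until they can. In heat or proteotoxic stress, the transcription factor Hsf binds heat shock elements and switches on the inducible genes, among them Hsp68 and the Hsp70 copies. Hsp83 is the fly Hsp90, which matures kinases and steroid receptors and is abundant without stress. Hsc70-4 is the main constitutive Hsp70 of the cytosol. Hsc70-3 is the fly BiP, the Hsp70 of the endoplasmic reticulum lumen, and so is not itself a cytosolic chaperone. DnaJ-1 is a J-domain protein that stimulates Hsp70 ATPase activity, and stv (starvin) is a BAG-domain co-chaperone that helps Hsp70 release its substrate and nucleotide. Hsp23, Hsp26 and Hsp27 are small heat shock proteins, which hold unfolded proteins without ATP.

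In dm6 coordinates from the Ensembl annotation, Hsp26 (FBgn0001225) lies on chromosome 3L from 9376418 to 9377427 on the minus strand. Hsp23 (FBgn0001224) lies from 9381882 to 9382765 and Hsp27 (FBgn0001226) from 9384063 to 9385694, both on the plus strand of the same arm, so the 3 small heat shock genes are close neighbours. Hsp83 (FBgn0001233) covers 3L from 3192969 to 3197059, DnaJ-1 (FBgn0263106) covers 3L from 5750029 to 5752189 and stv (FBgn0086708) covers 3L from 13477541 to 13483515. Hsc70-4 (FBgn0266599) covers 3R from 15242687 to 15246614 and Hsp68 (FBgn0001230) covers 3R from 24055080 to 24057310. Hsc70-3 (FBgn0001218) covers X from 11801696 to 11807117 and Hsf (FBgn0001222) covers 2R from 18130303 to 18134634. Hsp68, Hsp26, Hsp27, Hsp23 and DnaJ-1 are annotated as 1 exon block. Hsp83 has 2 exon blocks, Hsf has 8, and stv, Hsc70-3 and Hsc70-4 have 5 each. Summed exon lengths were 884 nt for Hsp23, 1010 nt for Hsp26 and 1632 nt for Hsp27, against 2161 to 3670 nt for the other 7. Exons of Hsp83, Hsp68 and Hsp27 overlap those of other annotated genes by 15, 26 and 49 bases. The strand setting of the counting is not given in the sources used here, so reads in those few bases could not be assigned.

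Total counts were 9648377 to 11918941 in input libraries and 7559406 to 9453365 in polysome libraries, at which 3 counts correspond to 0.262 to 0.382 CPM (counts of a gene per 1000000 counts of its library). Values below are CPM scaled by TMM factors, which correct library sizes for composition. They are relative to the other mRNAs of a library, so a shift in polysome loading shared by most genes would not be seen. Porthos itself stood at 93.6 to 141 CPM in polysome porthos libraries, against 313 to 325 CPM in polysome GFP libraries. In input it stood at 95.7 to 108 CPM in porthos libraries, against 220 to 226 CPM in GFP libraries. Plasmatocyte markers were expressed, although 3 of the 10, NimC1, He and Sr-CI, were near 1 CPM in input GFP libraries. Fat body markers, of which Lsp1alpha had 0 counts in every library, summed to at most 3.21 CPM, and muscle markers to at most 15.4 CPM. Not all lists of other cell types were low. Neuron markers summed to 137 to 164 CPM in input libraries and 79.6 to 116 CPM in polysome libraries. Germline markers summed to 241 to 279 CPM in input libraries. The third polysome porthos library stood apart, with 10377 genes that had a count, against 11485 to 11864 in the other 11.

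**Figure D1:**
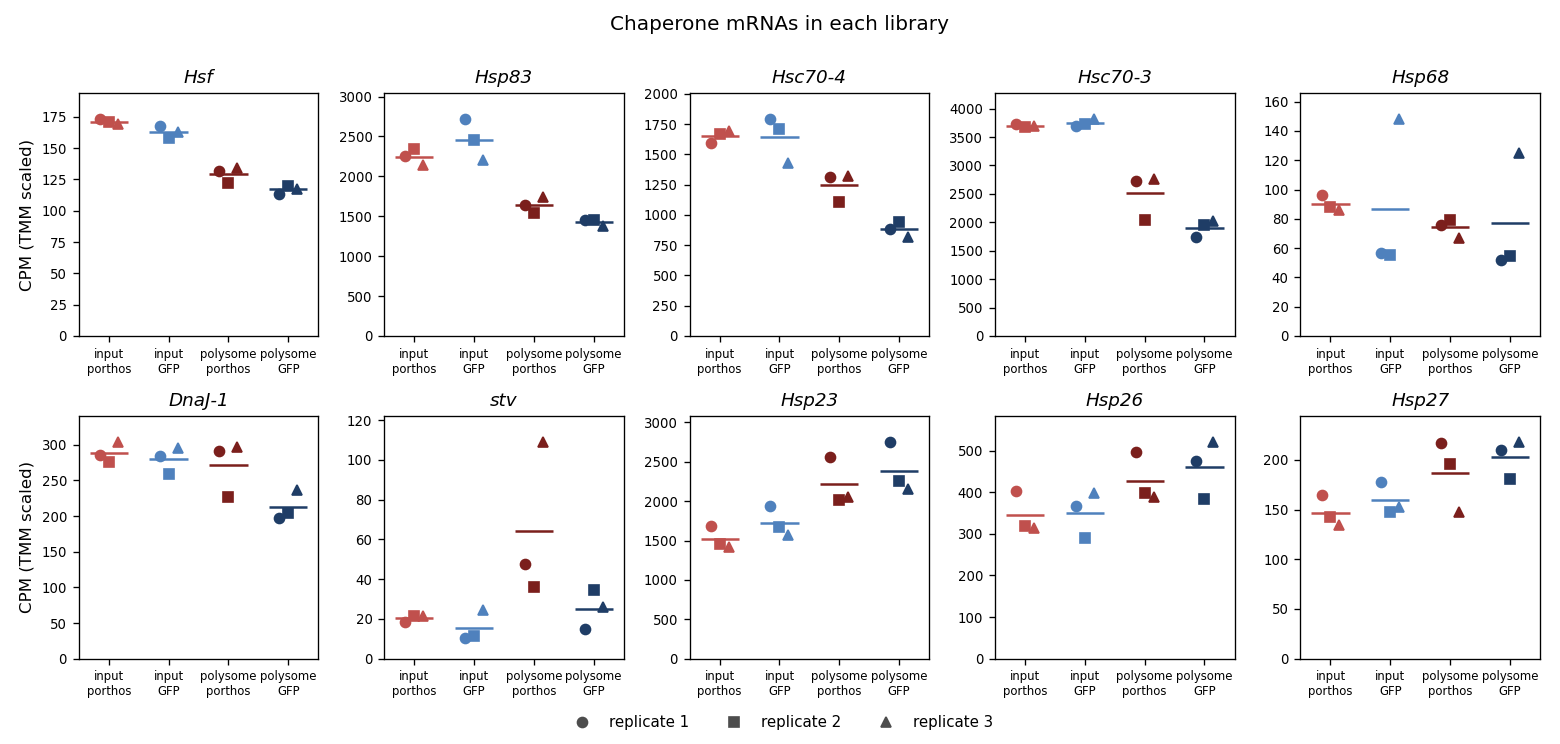
Expression of the 10 genes in each of the 12 libraries, in TMM-scaled CPM on a linear axis for each gene. Each library is 1 point, and the porthos group is left of the GFP group in input and in polysomes. Most genes form tight groups of 3, while stv in polysomes and in input GFP libraries and Hsp68 in the GFP groups are spread widely. The third polysome porthos library has stv at 109 CPM.

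Levels per length spanned a wide range. Per kilobase of summed exon, the mean level in input porthos libraries was highest for Hsp23 (1718 CPM per kb), followed by Hsc70-3 (1030 CPM per kb), Hsp83 (757 CPM per kb), Hsc70-4 (609 CPM per kb) and Hsp26 (342 CPM per kb). DnaJ-1 (133 CPM per kb), Hsp27 (90.2 CPM per kb), Hsf (58.7 CPM per kb), Hsp68 (40.5 CPM per kb) and stv (5.59 CPM per kb) followed, and no neighbours in that order overlapped between their libraries. The order was the same in input GFP libraries, from Hsp23 at 1952 CPM per kb to stv at 4.22 CPM per kb, with overlap between Hsf and Hsp68. On polysomes Hsp23 stood further above the rest, at 2502 CPM per kb in porthos libraries and 2699 CPM per kb in GFP libraries. Hsc70-3 was second at 700 CPM per kb in polysome porthos libraries and 531 CPM per kb in polysome GFP libraries, and its libraries overlapped those of Hsp83 in both. Hsc70-4 and Hsp26 overlapped on porthos polysomes (459 and 424 CPM per kb), while on GFP polysomes Hsp26 (456 CPM per kb) stood above Hsc70-4 (325 CPM per kb). stv was last in every group.

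In total RNA, none of the 10 genes passed the test for a difference between porthos and GFP cells. The test was edgeR's quasi-likelihood test over all 9024 genes with Benjamini-Hochberg adjustment, and a gene was called at an adjusted p under 0.05. Over all genes tested, 0.997% were called higher and 0.72% lower in input porthos libraries. No member had an unadjusted p under 0.05 either, and DESeq2 and limma voom called 0 members. The members' median log2 change was -0.01, beside 0.00 over all genes.

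The abundant constitutive chaperones were close in the input groups. Hsc70-3 had 3726, 3676 and 3692 CPM in input porthos libraries, against 3702, 3736 and 3813 CPM in input GFP libraries (log2 change -0.02 ± 0.09 SE, adjusted p = 0.96). The groups overlapped and spanned a narrow range. Hsc70-4 had 1595, 1669 and 1696 CPM in input porthos libraries, against 1791, 1710 and 1433 CPM in input GFP libraries (0.01 ± 0.09, adjusted p = 0.99). DnaJ-1 averaged 288 ± 14.2 CPM in input porthos libraries and 280 ± 19.0 CPM in input GFP libraries (SD, n = 3 each). Hsp83 had 2249, 2337 and 2137 CPM in input porthos libraries, against 2715, 2459 and 2207 CPM in input GFP libraries (-0.13 ± 0.08, adjusted p = 0.46). Hsf, the regulator, had 173, 171 and 169 CPM in input porthos libraries, against 168, 158 and 163 CPM in input GFP libraries (0.07 ± 0.07, adjusted p = 0.71). All 3 Hsf values with porthos dsRNA lay above all 3 with GFP dsRNA, which made Hsf the only member whose input groups did not overlap, while 12.9% of all genes had porthos libraries wholly above GFP libraries. The small heat shock genes overlapped in input. Hsp23 averaged 1519 ± 147 CPM in input porthos libraries and 1726 ± 188 CPM in input GFP libraries, Hsp26 averaged 345 ± 49.8 CPM in input porthos libraries and 351 ± 56.0 CPM in input GFP libraries, and Hsp27 averaged 147 ± 16.0 CPM in input porthos libraries and 160 ± 15.9 CPM in input GFP libraries (SD, n = 3 each).

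On polysomes, 4 of the 10 genes were higher in porthos cells and none was lower. They were Hsc70-4, Hsc70-3, DnaJ-1 and stv, that is the constitutive Hsp70 of the cytosol, its counterpart in the endoplasmic reticulum, a J-domain partner and a BAG-domain partner of Hsp70. Over all genes tested, 11.2% were called higher and 7.14% lower. No member was lower at an unadjusted p under 0.05. The members' median log2 change was 0.17, beside -0.00 over all genes, whose central range (10th to 90th percentile) was -0.36 to 0.39.

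Hsc70-4 had 1310, 1110 and 1320 CPM in polysome porthos libraries, against 886, 945 and 814 CPM in polysome GFP libraries. Every porthos library was above every GFP library. The fold change was 1.41, a log2 change of 0.50 ± 0.09 (adjusted p = 0.00034). Hsc70-3 had 2733, 2046 and 2759 CPM in polysome porthos libraries, against 1736, 1957 and 2020 CPM in polysome GFP libraries, a fold change of 1.32 and a log2 change of 0.40 ± 0.09 (adjusted p = 0.0031). The groups did not overlap, but the second porthos library, at 2046 CPM, was just above the highest GFP library. With any 1 of the 12 libraries left out, Hsc70-4 kept a log2 change of 0.41 to 0.56 and Hsc70-3 of 0.31 to 0.51, with adjusted p no higher than 0.0074 for Hsc70-4 and 0.04 for Hsc70-3.

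DnaJ-1 had 292, 227 and 297 CPM in polysome porthos libraries, against 197, 204 and 237 CPM in polysome GFP libraries. The second porthos library lay below the third GFP library, so the groups overlapped. The log2 change of DnaJ-1 was 0.36 ± 0.09, a fold change of 1.28 (adjusted p = 0.0098). It was called in 8 of the 12 fits with a library left out. In the other 4, without polysome porthos replicate 1 or 3 or polysome GFP replicate 1 or 2, its adjusted p was 0.061 to 0.076 at log2 changes of 0.27 to 0.31.

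stv had 47.6, 35.9 and 109 CPM in polysome porthos libraries, against 15.0, 34.7 and 26.0 CPM in polysome GFP libraries. The groups did not overlap, although the lowest porthos library was close to the highest GFP library and the third porthos library was far above all others. Its fold change was the largest of the members, 2.52, a log2 change of 1.33 ± 0.31 (adjusted p = 0.0041). Without this library, the one with fewer detected genes, the log2 change of stv was 0.70 ± 0.25 (adjusted p = 0.066). In that fit 2 of the 10 members, Hsc70-3 and Hsc70-4, were called. Over all 9190 genes tested there, 599 were called higher and 416 lower, against 1014 and 644 of 9024 in the main fit. With all 4 libraries numbered 3 left out, stv had a log2 change of 0.74 ± 0.21 (adjusted p = 0.023).

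**Figure D2:**
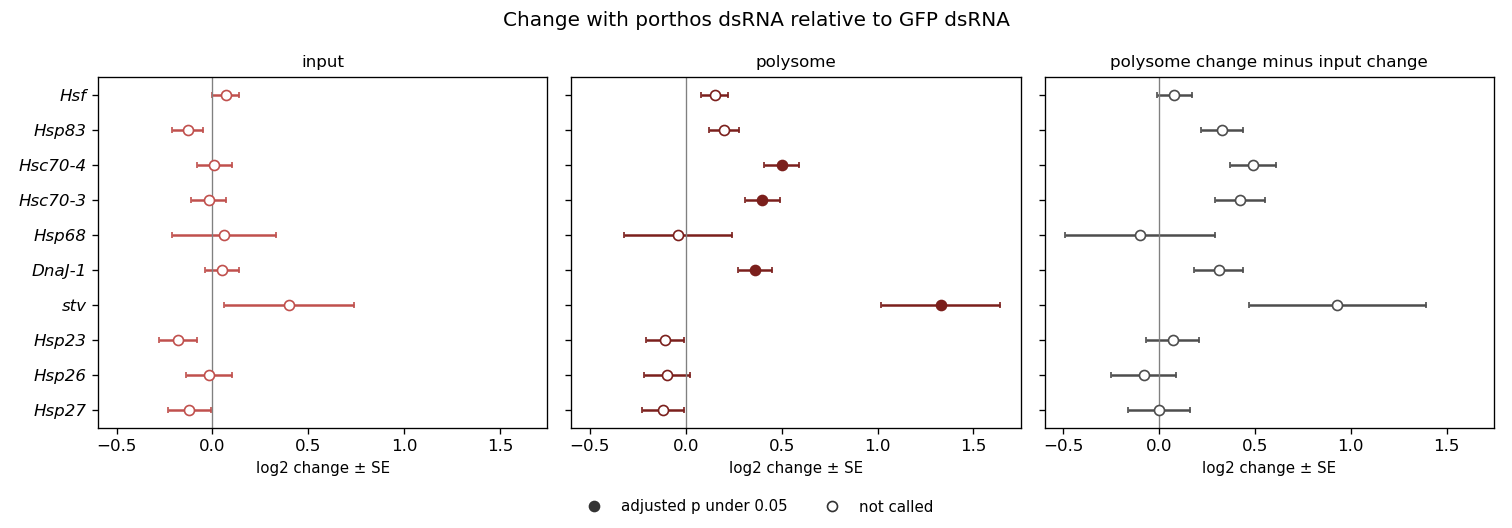
Log2 change of each gene with porthos dsRNA relative to GFP dsRNA, with its standard error, in input, in polysomes and as the polysome change minus the input change. Filled points mark an adjusted p under 0.05. No point is filled in input or in the difference, and 4 are filled in polysomes, at 1.33 for stv, 0.50 for Hsc70-4, 0.40 for Hsc70-3 and 0.36 for DnaJ-1.

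Of the remaining genes on polysomes, Hsp83 had 1645, 1538 and 1736 CPM in porthos libraries, against 1451, 1457 and 1383 CPM in GFP libraries. The groups did not overlap, and the log2 change was 0.20 ± 0.08 (adjusted p = 0.076). Without polysome porthos replicate 2 it was 0.23 with an adjusted p of 0.037. Hsf had 132, 122 and 134 CPM in polysome porthos libraries, against 113, 120 and 117 CPM in polysome GFP libraries (0.15 ± 0.07, adjusted p = 0.13), again without overlap. In all, 5 of the 10 members, stv, Hsp83, Hsc70-3, Hsc70-4 and Hsf, had every polysome porthos library above every polysome GFP library, while 16.2% of all genes did, and 11.2% of all genes were called higher.

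The small heat shock genes were not among them. Hsp23 had 2561, 2021 and 2055 CPM in polysome porthos libraries, against 2752, 2250 and 2156 CPM in polysome GFP libraries (-0.11 ± 0.10, adjusted p = 0.50). Hsp26 averaged 428 ± 60.8 CPM in polysome porthos libraries and 460 ± 68.8 CPM in polysome GFP libraries (-0.10 ± 0.12, adjusted p = 0.60). Hsp27 averaged 187 ± 35.2 CPM in polysome porthos libraries and 203 ± 19.5 CPM in polysome GFP libraries (SD, n = 3 each; -0.12 ± 0.11, adjusted p = 0.50). All 3 overlapped between the groups. Summed over the 10 genes, polysome porthos libraries held 9511, 7775 and 9012 CPM, against 7886, 7588 and 7616 CPM in polysome GFP libraries, so the second porthos library lay within the GFP range. Summed over the same 10 genes, input porthos libraries held 10400, 10152 and 9970 CPM, against 11204, 10500 and 10205 CPM in input GFP libraries. Summed over their lists, 10 plasmatocyte markers reached 1130 to 1300 CPM in polysome porthos libraries, against 968 to 1120 CPM in polysome GFP libraries, a sum in which Col4a1 was the largest part. Of the 9 tested, 5 were called higher on polysomes and 3 in input, none lower. The 3 in input were Hml, Pxn and eater, with log2 changes of 1.00, 1.18 and 0.94 in input and 0.77, 1.11 and 1.15 on polysomes. The 5 matched crystal cell and lamellocyte markers summed to 1460 to 1530 CPM in polysome porthos libraries, against 1620 to 1810 CPM in polysome GFP libraries, and to 974 to 1120 CPM in input porthos libraries, against 1180 to 1320 CPM in input GFP libraries. Most of that sum was Prx2, and the defining crystal cell marker lz was below 1 CPM in every library. The sum is therefore mainly the level of 1 gene, and not a measure of crystal cell or lamellocyte identity. The 4 matched germline markers (bam, nanos, aub and piwi) reached 138 to 203 CPM in polysome porthos libraries, against 110 to 117 CPM in polysome GFP libraries, with none at 0 counts in all libraries. The part of these differences in the results was not tested.

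Hsp68, a stress-inducible Hsp70-class gene, differed more between the GFP replicates than between the dsRNA groups. It had 96.5, 88.4 and 86.1 CPM in input porthos libraries, against 56.5, 55.3 and 148 CPM in input GFP libraries. On polysomes it had 75.9, 79.5 and 67.0 CPM in porthos libraries, against 51.9, 54.5 and 125 CPM in GFP libraries. In both fractions the third GFP library was above the 3 porthos libraries, and the first and second GFP libraries were below them. The log2 changes were 0.06 ± 0.27 in input (adjusted p = 0.96) and -0.04 ± 0.28 on polysomes (adjusted p = 0.93).

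The 6 near-identical Hsp70 copies, whose reads the counting could split between them, also had their highest GFP value in the third library of each fraction when summed. The Hsp70 sum was 26.5, 22.1 and 36.2 CPM in polysome porthos libraries, against 13.6, 13.5 and 30.4 CPM in polysome GFP libraries. It was 36.5, 33.7 and 40.5 CPM in input porthos libraries, against 22.3, 17.8 and 56.3 CPM in input GFP libraries. stv was also high in the third input GFP library, with 18.4, 21.5 and 21.7 CPM in input porthos libraries, against 10.2, 11.6 and 24.7 CPM in input GFP libraries (0.40 ± 0.34, adjusted p = 0.66). On polysomes the highest GFP library for stv was the second, at 34.7 CPM.

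Few genes stood as high in the third GFP libraries as Hsp68. Relative to the mean of its other 2 replicates, Hsp68 was higher by 1.4 on the log2 scale in input GFP replicate 3, above 99.8% of all genes tested, and by 1.22 in polysome GFP replicate 3, above 99.7%. stv was higher by 1.16 in input GFP replicate 3 and by 0.19 in polysome GFP replicate 3. An alternative chosen after seeing the data left out both GFP libraries numbered 3. These were the libraries in which Hsp68 itself was highest, so its values without them depend on that choice and are no test of a rise. Hsp68 then had a log2 change of 0.69 ± 0.10 in input (adjusted p = 0.00033) and 0.45 ± 0.10 on polysomes (adjusted p = 0.0033), in both cases higher with porthos dsRNA. With all 4 libraries numbered 3 left out, Hsp68 had log2 changes of 0.72 ± 0.09 in input (adjusted p = 4.2e-05) and 0.54 ± 0.09 on polysomes (adjusted p = 0.00049). What sets these GFP libraries apart was not tested.

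**Figure D3:**
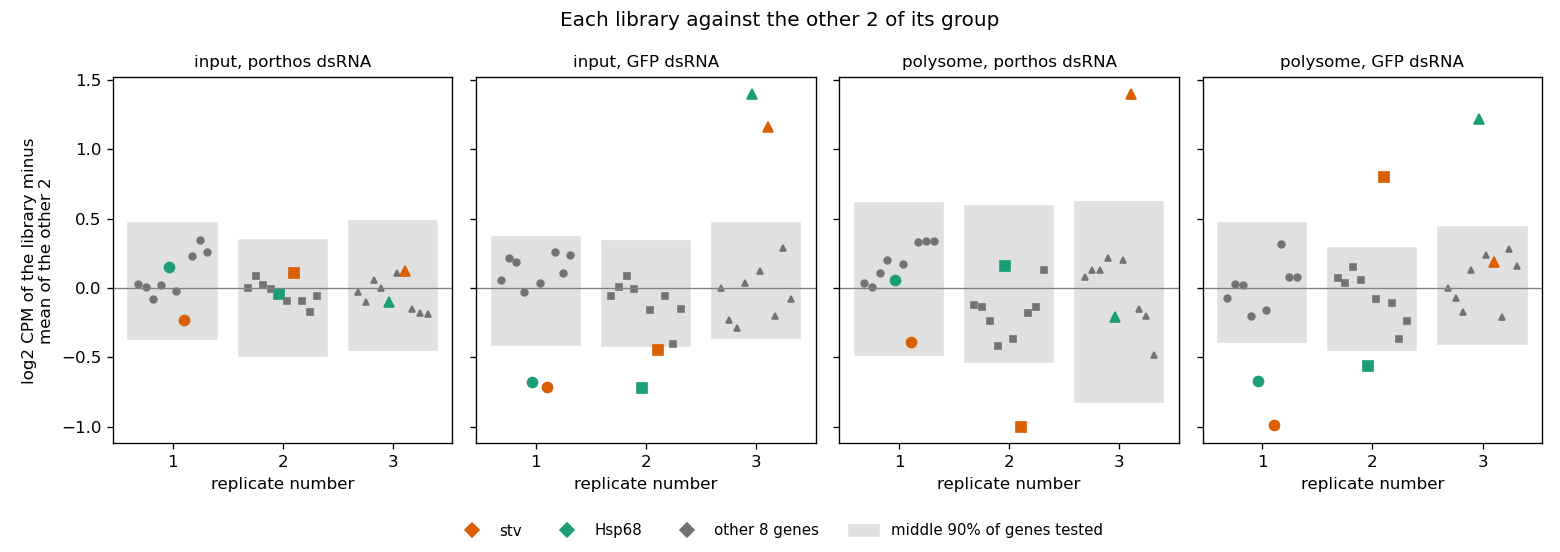
Deviation of each library from the mean of the other 2 libraries of its group, in log2 units, for each of the 10 genes, beside the range that holds the central 90% of all genes tested. Hsp68 lies at 1.4 and 1.22 in the third GFP libraries and stv at 1.4 in the third polysome porthos library, while most other values lie within the range of all genes.

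The polysome porthos replicates differed among themselves as well. In the second library, 8 of the 10 genes were below the mean of the other 2, by 1.00 on the log2 scale for stv, 0.42 for Hsc70-3, 0.37 for DnaJ-1 and 0.24 for Hsc70-4, while the central 90% of all genes ran from -0.53 to 0.59. Porthos itself was at 141 CPM in that library, against 113 and 93.6 CPM in the other 2, and its part in these values was not tested. In the third library, stv was higher by 1.4 and Hsp27 lower by 0.48, and the other 8 genes lay between -0.21 and 0.22, inside a range of -0.82 to 0.62 for all genes.

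Whether polysomes changed by more than input was tested as the difference of both log2 changes. No member passed this test in the main fit, which had no replicate block, at a background of 0.0776% of all genes called higher and 0.0222% called lower. At an unadjusted p under 0.05, 4 members had a larger change on polysomes, beside 1352 of all 9024 genes that passed in either direction. DESeq2 called 3 members, beside 253 of all genes, while limma voom called 0 members, beside 3 of all genes. The difference was 0.49 ± 0.12 for Hsc70-4 (adjusted p = 0.071), 0.42 ± 0.13 for Hsc70-3 (adjusted p = 0.12), 0.33 ± 0.11 for Hsp83 (adjusted p = 0.14) and 0.31 ± 0.13 for DnaJ-1 (adjusted p = 0.26). For stv it was 0.93 ± 0.46 (adjusted p = 0.35). With a replicate block per lysate, Hsc70-4 (0.49, adjusted p = 0.013) and Hsc70-3 (0.41, adjusted p = 0.036) were called. There, 175 of all 9024 genes were called higher and 52 lower. The labels tie no replicate number to a lysate, so whether members passed depended on a pairing that is assumed. Without polysome porthos replicate 2, in the fit with no block, the differences were 0.56 for Hsc70-4 (adjusted p = 0.0057), 0.54 for Hsc70-3 (adjusted p = 0.0018), 0.41 for DnaJ-1 (adjusted p = 0.024) and 0.36 for Hsp83 (adjusted p = 0.037). In that fit, 512 of all 9237 genes tested were called higher and 182 lower. It was the only fit with 1 library left out that called a member in the difference.

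The 10 genes fell on both sides when polysome and input RNA of the same cells were compared. In porthos cells 4 members (stv, Hsp26, Hsp27 and Hsp23) were higher and 4 (Hsp83, Hsc70-3, Hsc70-4 and Hsf) lower on polysomes than in input, beside 23.7% of all genes called higher and 24.1% lower. In GFP cells 3 members (Hsp26, Hsp27 and Hsp23) were higher and 5 (Hsp83, Hsc70-3, Hsc70-4, DnaJ-1 and Hsf) lower, beside 26.5% higher and 28.9% lower. These contrasts share their libraries with the dsRNA contrasts above, so their values are given side by side. Polysome and input RNA were also extracted by different methods, phenol-chloroform and TRIzol, per the labels' protocols, so fraction and extraction cannot be told apart.

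Hsc70-3 had the lowest polysome level relative to input among the members. On porthos polysomes its scaled CPM was 0.679 times that in input, a log2 change of -0.56 ± 0.09 (adjusted p = 1.4e-05). On GFP polysomes the scaled CPM of Hsc70-3 was 0.508 times that in input (-0.98 ± 0.09, adjusted p = 2.6e-09). These ratios are not the fraction of the mRNA on polysomes. Hsc70-4 had log2 changes of polysome over input of -0.41 ± 0.09 in porthos cells (adjusted p = 0.00037) and -0.90 ± 0.09 in GFP cells (adjusted p = 5.7e-09). Hsp83 had -0.45 ± 0.08 in porthos cells (adjusted p = 3.3e-05) and -0.78 ± 0.08 in GFP cells (adjusted p = 8.0e-09). Hsf had -0.40 ± 0.07 in porthos cells (adjusted p = 2.1e-05) and -0.48 ± 0.07 in GFP cells (adjusted p = 1.2e-06). For these 4 genes every polysome library lay below every input library with either dsRNA, as it did for 26.4% of all genes in porthos cells and 33.1% in GFP cells. DnaJ-1 stood at -0.09 ± 0.09 in porthos cells (adjusted p = 0.47), where the groups overlapped, and at -0.40 ± 0.09 in GFP cells (adjusted p = 0.00081), where they did not.

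The small heat shock genes went the other way. Hsp23 had 2561, 2021 and 2055 CPM on porthos polysomes, against 1688, 1454 and 1415 CPM in porthos input, a log2 change of 0.54 ± 0.10 (adjusted p = 0.00011). In GFP cells Hsp23 had 2752, 2250 and 2156 CPM on polysomes, against 1934, 1674 and 1569 CPM in input, a log2 change of 0.47 ± 0.10 (adjusted p = 0.00039). Polysome libraries of Hsp23 were all above input libraries in both. Hsp27 had log2 changes of 0.35 ± 0.11 in porthos cells (adjusted p = 0.012) and 0.35 ± 0.11 in GFP cells (adjusted p = 0.0096), and Hsp26 of 0.31 ± 0.12 in porthos cells (adjusted p = 0.036) and 0.39 ± 0.12 in GFP cells (adjusted p = 0.0081). Hsp26 polysome and input libraries overlapped with either dsRNA. In porthos cells, Hsp26 was not called with DESeq2 (adjusted p = 0.13) or in 3 of the 12 fits with a library left out. Without polysome porthos replicate 1, Hsp26 was at 0.19 (adjusted p = 0.25) and Hsp27 at 0.23 (adjusted p = 0.12), neither called. In GFP cells, Hsp26 was at 0.30 (adjusted p = 0.054) without input GFP replicate 2, and Hsp27 at 0.29 (adjusted p = 0.085) without both GFP libraries numbered 3. These are the 3 shortest of the 10 transcripts. With the trend of CPM on exon length removed from each library, an alternative chosen after seeing the data, none of the 3 was called. Hsp23 was then at 0.10 in porthos cells (adjusted p = 0.42) and -0.11 in GFP cells (adjusted p = 0.37), Hsp26 at -0.07 in porthos cells (adjusted p = 0.68) and -0.09 in GFP cells (adjusted p = 0.57), and Hsp27 at 0.20 in porthos cells (adjusted p = 0.16) and 0.21 in GFP cells (adjusted p = 0.11). The 4 genes depleted with either dsRNA stayed depleted with the trend removed, for example Hsc70-3 at -0.32 in porthos cells and -0.68 in GFP cells.

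stv was the member furthest above input on polysomes, with a log2 change of 1.64 ± 0.31 in porthos cells (adjusted p = 0.0001), where every polysome library was above every input library, and 0.71 ± 0.34 in GFP cells (adjusted p = 0.082), where the groups overlapped. Without input GFP replicate 3, the GFP value was 1.23 (adjusted p = 0.0082). Hsp68 had 75.9, 79.5 and 67.0 CPM on porthos polysomes, against 96.5, 88.4 and 86.1 CPM in porthos input, so every polysome library was below every input library. The log2 change was -0.28 ± 0.28 (adjusted p = 0.42). This SE comes from a spread estimated over all 12 libraries, including the widely spread GFP libraries. Hsp68 was called lower in 5 of 24 alternatives, among them the fit with only the compared groups (-0.28 ± 0.09, adjusted p = 0.014) and the fit without both GFP libraries numbered 3 (-0.28, adjusted p = 0.007). In GFP cells Hsp68 stood at -0.18 ± 0.28 (adjusted p = 0.62). Over the members the median log2 change was -0.18 in porthos cells and -0.29 in GFP cells, beside 0.01 over all genes in both.

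**Figure D4:**
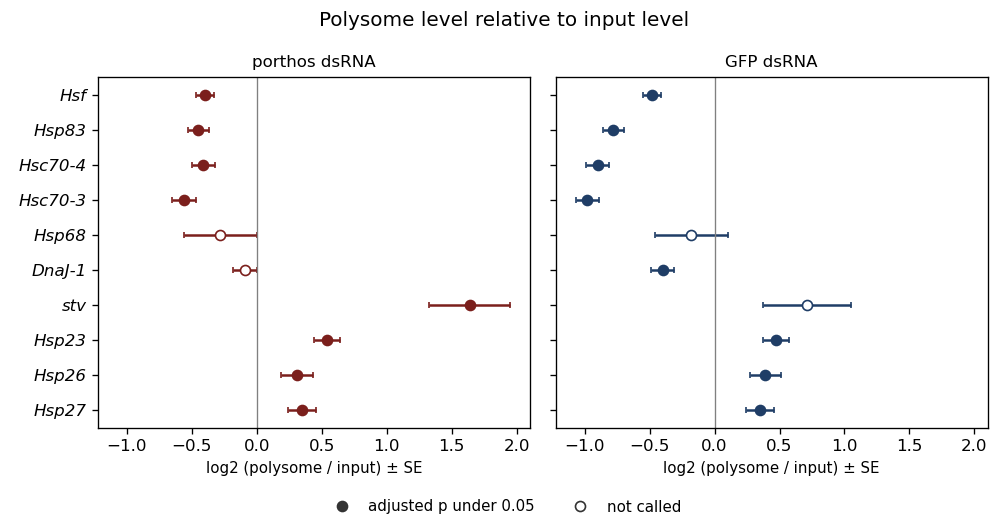
Log2 ratio of polysome to input level of each gene, with its standard error, in porthos cells (left) and GFP cells (right), with filled points for an adjusted p under 0.05. Hsf, Hsp83, Hsc70-4 and Hsc70-3 lie below 0 in both panels, Hsp23, Hsp26 and Hsp27 lie above 0 in both, and stv lies at 1.64 in porthos cells.

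Other genes of the chaperone system were taken from lists of known functions. Among Hsp70 and Hsp90 co-chaperones outside the 10 genes, 17 of 21 listed genes were tested on polysomes, of which 6 rose and 1 fell with porthos dsRNA, with a median log2 change of 0.18, beside 11.2% of all genes called higher and 7.14% lower. Stip1, the adaptor that links Hsp70 to Hsp90, had 600, 451 and 566 CPM in polysome porthos libraries, against 354, 389 and 383 CPM in polysome GFP libraries (0.52 ± 0.09, adjusted p = 0.00022). Sgt, a tetratricopeptide co-chaperone, had 274, 252 and 247 CPM in polysome porthos libraries, against 161, 189 and 189 CPM in polysome GFP libraries (0.52 ± 0.08, adjusted p = 0.00011). Tpr2, a J-domain protein with tetratricopeptide repeats, rose by 0.51 ± 0.08 (adjusted p = 0.00015). In all 3 every porthos library was above every GFP library. HIP, HIP-R and Droj2 also rose, by 0.30, 0.41 and 0.45, and DnaJ-H was lower at -0.36. Of the other small and 70-kDa heat shock genes, 10 of 18 were tested and 1 rose, Hsp110, a nucleotide exchange factor of Hsp70, at 283, 242 and 280 CPM in polysome porthos libraries, against 226, 236 and 214 CPM in polysome GFP libraries (0.25 ± 0.08, adjusted p = 0.026). That is 1 of 10 tested, close to the share over all genes. The list held 0 calls in 7 of the 12 fits with a library left out, and 3 without polysome GFP replicate 3. That last fit called 765 higher and 881 lower of all 9203 genes tested.

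Among chaperones and stress sensors of the endoplasmic reticulum, where Hsc70-3 works, 17 of 20 were tested on polysomes, 6 rose and 2 fell, with a median of 0.07, beside the same 11.2% higher and 7.14% lower over all genes. ERp60, a protein disulfide isomerase, had 1584, 1367 and 1464 CPM in polysome porthos libraries, against 1000, 1084 and 1068 CPM in polysome GFP libraries (0.49 ± 0.07, adjusted p = 8.4e-05). The lectin chaperone Calr rose by 0.40 ± 0.08 (adjusted p = 0.00087) and CaBP1, another disulfide isomerase, by 0.44 ± 0.09 (adjusted p = 0.0018), while Gp93, the Hsp90 of this compartment, rose by 0.39, Sil1 by 0.31 and P58IPK by 0.26. The 2 that fell were regulators of the unfolded protein response, the transcription factor Xbp1 at -0.25 and the kinase PEK at -0.22. Without polysome porthos replicate 1, 4 genes of the list rose and 0 fell, beside 607 higher and 408 lower of all 9214 genes tested. Without replicate 3, 6 rose and 0 fell, beside 599 higher and 416 lower of 9190. The main fit called 1014 higher and 644 lower of 9024. CaBP1 was lowest in the second porthos library, at 807 CPM against 1126 and 1047 CPM in the other 2, like Hsc70-3.

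All 6 listed mitochondrial chaperones were tested, of which 3 rose and 1 fell on polysomes, with a median of 0.00, beside 11.2% higher and 7.14% lower over all genes. Trap1, the mitochondrial Hsp90, had 304, 264 and 293 CPM in polysome porthos libraries, against 202, 200 and 199 CPM in polysome GFP libraries (0.52 ± 0.07, adjusted p = 2.6e-05). Hsp60A, the chaperonin, had 303, 289 and 306 CPM in polysome porthos libraries, against 229, 228 and 224 CPM in polysome GFP libraries (0.40 ± 0.07, adjusted p = 0.00061). Hsc70-5 rose by 0.31, and Roe1, a nucleotide exchange factor, was lower at -0.36 ± 0.08 (adjusted p = 0.004). Without polysome porthos replicate 3, 2 rose and 1 fell, beside 599 higher and 416 lower of all 9190 genes tested. Without replicate 2, 3 rose and 3 fell, beside 1252 higher and 1132 lower of 9237.

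Of 12 stress genes outside the chaperones, 11 were tested on polysomes, 1 rose and 2 fell, with a median of -0.12. With 11.2% of all genes higher and 7.14% lower, the 1 that rose is close to the share over all genes. The gene that rose was Cat, the catalase, at 0.37 ± 0.09 (adjusted p = 0.0042). The 2 that fell were trbl, a pseudokinase, at -0.46 ± 0.09 (adjusted p = 0.0016), and lncRNA:Hsromega, the noncoding RNA of a heat shock locus, with 266, 295 and 235 CPM in polysome porthos libraries, against 339, 333 and 326 CPM in polysome GFP libraries. In input, 1 of the 61 genes was called by edgeR, the metallothionein MtnA of the stress list, which was higher by 0.53 ± 0.10 (adjusted p = 0.0061), and 7 had an unadjusted p under 0.05, beside 0.997% and 0.72% of all genes called higher and lower and 1250 of all 9024 with an unadjusted p under 0.05. In the test of the difference between polysomes and input, edgeR called 0 of the 61 genes tested from the 5 lists, while 24 had an unadjusted p under 0.05, DESeq2 called 11 and limma voom 0. Over all 9024 genes, 1352 had an unadjusted p under 0.05, and DESeq2 called 253 and limma voom 3. The small heat shock gene Hsp22 had 0 counts in every library.

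**Figure D5:**
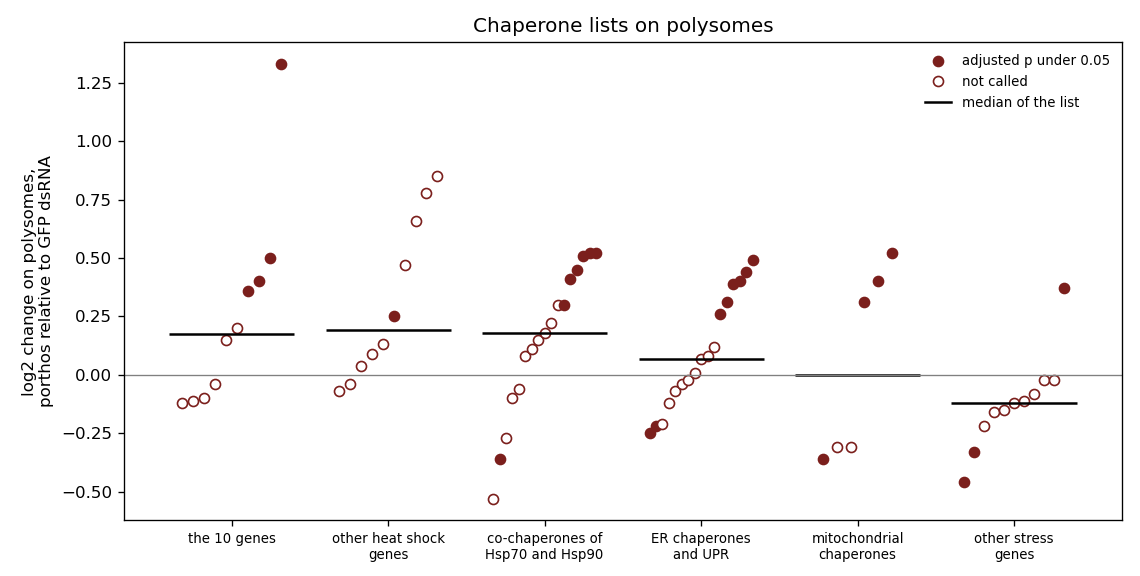
Log2 change on polysomes with porthos dsRNA relative to GFP dsRNA for the 10 genes and for 5 lists of related genes, 1 point for each gene tested, with filled points for an adjusted p under 0.05 and a line at each list's median. Filled points above 0 outnumber those below in the co-chaperone and endoplasmic reticulum lists (6 against 1 and 6 against 2), and the stress genes outside the chaperones have 1 above and 2 below.

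Patterns over the 12 libraries were compared by the root-mean-square difference of centred log2 CPM, over genes with a mean of at least 10 CPM. Within the set, the small heat shock genes were close to each other, with differences of 0.129 between Hsp26 and Hsp27, 0.154 between Hsp27 and Hsp23 and 0.193 between Hsp26 and Hsp23. Hsc70-4 was close to Hsp83 (0.134) and to Hsc70-3 (0.138), and Hsf to Hsp83 (0.13). stv was at least 0.844 from each of the other 9. Among all genes, the closest were ND-AGGG to stv (0.554), bel to Hsp83 among those with a symbol (0.0765), CG9447 to Hsp68 (0.321), Fim to Hsc70-3 (0.0618), CG12065 to Hsc70-4 (0.0811), Grip75 to DnaJ-1 (0.0697) and egg to Hsf (0.0477). CG8349 was closest to Hsp26 (0.123), CG8635 to Hsp27 (0.0939) and ntc to Hsp23 (0.0995). The stv value is a loose match, beside a median of 0.911 over all genes for stv and 0.35 for Hsp83, and a gene with little change is close to many others by this measure.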

How the data were processed

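Gene counts from 12 libraries were used as deposited. The authors aligned reads with HISAT2 2.1.0 to dm6 and counted them with featureCounts 1.4.6, per the submitters' processing notes. Which annotation was counted, with what strand setting and how multi-mapping reads were treated, is not given in the sources used here. Symbols, exon lengths and coordinates came from Ensembl release 115, which matched 16646 of 17023 identifiers.

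Low counts were filtered with edgeR's filterByExpr (version 4.0.16, R 4.3.3), libraries were scaled by TMM, and 1 quasi-likelihood model with a term for each of the 4 groups was fitted to all 12 libraries. The 5 contrasts were tested with Benjamini-Hochberg adjustment over 9024 genes. A standard error is the size of the log2 change over the root of its F statistic. DESeq2 1.42.0 and limma 3.58.1 served as alternatives. From each list up to 3 called genes with the smallest p on polysomes were named by rule, and the other genes of the lists that are named were chosen after their values were seen. The members and lists were chosen with earlier results of these data known. Promoter and protein sequences were not analysed here.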

Additional observations from a re-analysis of the deposited data

How the results depend on the processing

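Of 10 members, 4 were called higher on polysomes with porthos dsRNA, and the calls for Hsc70-3 and Hsc70-4 held in all 23 alternatives run for them. With 1 library left out at a time, the members called higher ranged from 2 to 5 on polysomes, 0 to 4 in the difference, and 2 to 4 for polysome against input in porthos cells and in GFP cells. All genes called ranged from 31 to 259 in input (155 with all libraries), 856 to 2384 on polysomes (1658) and 0 to 694 in the difference (9). Among members not called, leave-outs gave log2 changes with porthos dsRNA of -0.18 to 0.69 for Hsp68, -0.16 to 0.08 for Hsp26, -0.08 to 0.07 for Hsc70-4 and -0.01 to 0.09 for DnaJ-1 in input, -0.27 to 0.45 for Hsp68 on polysomes, and -0.75 to 0.39 for Hsp68, -0.21 to 0.05 for Hsp26 and -0.06 to 0.18 for Hsp23 in the difference. For polysome against input, leave-outs gave -0.16 to 0.03 for DnaJ-1 in porthos cells and -0.66 to 0.46 for Hsp68 in GFP cells. The 0.46 was without input GFP replicate 3, and the -0.66 without polysome GFP replicate 3 (adjusted p = 0.031).

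Genes called in input numbered 264 with no filter, 691 with only the compared groups, 244 with DESeq2 and 45 without both GFP libraries numbered 3. On polysomes, 853 genes were called with only the compared groups. In the difference, 16 were called with library sizes alone, 243 with no filter, 253 with DESeq2 and 3 with limma voom, and members called were 3 with no filter and 3 with DESeq2. Leaving out both GFP libraries numbered 3, or all 4 libraries so numbered, gave 1 member (Hsp68) called in input, Hsp26 in input at 0.08 and 0.13, Hsc70-4 in input at -0.08 and -0.11, and Hsp68 on polysomes at 0.45 and 0.54. Those GFP libraries held the highest Hsp68 values, so the Hsp68 calls without them are no test of a rise. Leaving out all 4 also gave 0.06 for Hsp26 and 0.08 for Hsp27 on polysomes and -0.12 for stv in the difference. limma voom gave 0.09 for Hsp68 on polysomes. With the length trend removed, 2518 genes were called in porthos cells for polysome against input (4311 before), 1 member was higher with either dsRNA, Hsp26 was at -0.07 in porthos cells and -0.09 in GFP cells, Hsp23 was at -0.11 in GFP cells, and the difference of Hsp26 was 0.02. The cause was not tested. Library sizes alone moved the median of all genes for polysome against input in GFP cells to 0.138, and made 45.1% of the polysome calls higher, against 61.2%.

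The replicate numbers were not taken to pair the samples, since the labels tie no number to a lysate. Deviations of libraries with the same number correlated at 0.0343 to 0.136 between polysome and input of the same dsRNA, all above 0, and at -0.0225 to 0.0871 between the dsRNA groups. That input and polysome libraries of 1 number share a lysate was not tested further. With a replicate block, 39 genes were called in the difference and Hsp68 on polysomes was at 0.06. With a replicate block per lysate, 227 genes and 2 members, Hsc70-4 (0.49, adjusted p = 0.013) and Hsc70-3 (0.41, adjusted p = 0.036), were called in the difference, and Hsp68 was called lower on polysomes than in input in porthos cells (-0.29, adjusted p = 0.0021). The block on replicate number alone gave 196 genes in input and 1814 on polysomes. That block called stv higher on polysomes than in input in GFP cells (0.77, adjusted p = 0.014), and it changed the call of no other member. The block per lysate also called stv higher there (0.73, adjusted p = 0.0087).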
